A study of Mus musculus with 4 samples.

Results

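The transcripts of 10 genes that encode the NF-kB transcription factors and the proteins that hold them in check were examined in CD11b+ microglia from 10-month-old mouse brain. The genes were chosen by symbol: the Rel family subunits Nfkb1, Nfkb2, Rel, Rela and Relb, the I-kappa-B proteins Nfkbia, Nfkbib and Nfkbie, the ubiquitin-editing enzyme Tnfaip3 and the kinase Ikbkb. All 10 were found among the 49993 genes of the count tables, and all 10 passed the filter on low counts. Both groups carried the APP/PS1 transgenes, a mouse model in which amyloid builds up in the brain. The AD group (APP/PS1+ asrij+/+, 2 libraries) kept an intact asrij gene, and the AD/KO group (APP/PS1+ asrij-/-, 2 libraries) had a constitutive deletion of it, so that the deletion was not limited to microglia. The labels name no promoter for the transgenes, no strain, no sex and no animal numbers. The p-values therefore measure only the spread between these libraries, which may be partly technical. The AD libraries also differed in reads of Xist, a transcript of the female X chromosome (6 and 1391). The series asked whether loss of Asrij alters microglial activation, and NF-kB is one of the best known switches of such activation.

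NF-kB proteins act as pairs of Rel family subunits. In a resting cell the pairs are held in the cytoplasm by I-kappa-B proteins, or by the unprocessed precursors p105 (from Nfkb1) and p100 (from Nfkb2). Signals from Toll-like, interleukin-1 and Tnf receptors activate the I-kappa-B kinase, of which Ikbkb encodes a catalytic subunit, and the kinase marks the I-kappa-B protein for destruction. The freed pairs enter the nucleus and switch on cytokine and chemokine genes, and also Nfkbia and Tnfaip3, which close the loop again. Much of this control acts on protein stability and location, which RNA counts do not show.

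Because this feedback runs through the promoters of the pathway's own genes, promoter stretches with a match to the 10-base kappa-B consensus are shown here. The RefSeq promoter table (GRCm38.p6) held entries for 7 of the 10 genes, and the 250 bases before each annotated start were searched on both strands. A match was found for 5 of these 7 genes (Nfkb2, Rel, Nfkbia, Nfkbie and Tnfaip3), beside 8.23% of the 27025 genes in the table and 7.25% of its 32851 promoter windows. Rela and Nfkbib had no match in these windows, which says nothing on binding of the factor. Tnfaip3 had no match before its annotated start at 19011963. Some matches of Nfkb2 are not shown, at −11 to −2 of the start at 46304737 and before the starts at 46305695 and 46305930. Capitals mark the matched bases, with overlapping matches merged, and positions are counted back from the transcript start at −1. For Nfkbia (chr12:55492648-55492797, minus strand) and Nfkbie (chr17:45555550-45555699, plus strand) the 150 bases before the start hold no annotated exon and are given whole.
Nfkbia, −150 to −1: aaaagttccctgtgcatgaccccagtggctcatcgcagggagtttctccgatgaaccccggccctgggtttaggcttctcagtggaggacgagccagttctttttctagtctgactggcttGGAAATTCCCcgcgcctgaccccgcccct
Nfkbie, −150 to −1: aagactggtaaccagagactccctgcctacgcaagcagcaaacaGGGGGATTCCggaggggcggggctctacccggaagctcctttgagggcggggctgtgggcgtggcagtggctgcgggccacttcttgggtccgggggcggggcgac
For Rel (chr11:23771042-23771071, minus strand), Nfkb2 (chr19:46304688-46304717, plus strand) and Tnfaip3 (chr10:19015516-19015545 and chr10:19015411-19015440, minus strand), 30 bases around a match are given.
Rel, −102 to −73: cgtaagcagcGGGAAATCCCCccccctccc
Nfkb2, −49 to −20: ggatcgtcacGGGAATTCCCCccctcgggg
Tnfaip3, −135 to −106: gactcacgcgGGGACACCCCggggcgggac
Tnfaip3, −30 to −1: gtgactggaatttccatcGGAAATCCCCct

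The make-up of the libraries touches every level below and is given first. The libraries held from 13102622 to 19810076 counts. Markers of microglia were abundant in each library, with Csf1r and Cx3cr1 among them, but the mean log2 CPM (CPM, the count scaled to library size by TMM; 0.5 was added before the logarithm) of 13 such markers was 10.3 and 9.78 in the AD libraries and 10.2 and 8.42 in the AD/KO libraries. The 20 neuron and astrocyte markers stood at 5.41 and 6.87 in AD and at 6.78 and 8.25 in AD/KO. AD/KO replicate 2 was thus the library poorest in microglial and richest in neuronal and astrocytic RNA. The 11 neutrophil markers summed to 4552 CPM in AD replicate 2 and to between 336 and 529 CPM in the other libraries, and Xist, a transcript of the female X chromosome, had 1391 reads in AD replicate 2 and at most 15 elsewhere. The 8 T and NK cell markers summed to between 1.74 and 5.41 CPM, with 5 of them (Cd3e, Cd3g, Nkg7, Gzma and Klrb1c) at 0 in at least 1 library. The deleted gene, Ociad1, had 691 and 1032 reads in AD and 746 and 592 reads in AD/KO. Scaled, this was 50.2 and 63.4 CPM against 38.9 and 32.1 CPM, lower in each AD/KO library but not lost, and AD and AD/KO stand for the labels throughout. In bulk RNA, fewer microglia and less RNA per microglia cannot be told apart.

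Under TMM scaling, 9 of the 10 genes had a lower fitted level in AD/KO than in AD, but none passed the test for a difference, and with libraries scaled to the microglia markers only 2 of the 10 were lower. Of all 21439 genes tested, 52.8% were lower under TMM scaling and 17.1% with scaling to the microglia markers. The log2 fold changes (AD/KO minus AD) of the 10 genes ran from −0.89 for Rel to 0.11 for Nfkbib, with a median of −0.43 beside −0.05 for all genes tested. At an adjusted p under 0.05 the edgeR quasi-likelihood F-test (Benjamini-Hochberg) called 0% of all genes and 0 of the 10, whose adjusted p ran from 0.680 to 0.967. At an unadjusted p under 0.05 it called 2.30% of all genes as lower and 2.70% as higher, and again 0 of the 10. DESeq2's own test called 0.420% of all genes and 0 of the 10. With the replicate number as a block, which the labels do not establish as a pairing, edgeR called 20.2% of all genes, with 6.79% of all genes lower, and Rel and Tnfaip3 among the 10. The groups did not overlap, with AD/KO lower, in 2 of the 10 genes, Rel and Nfkb2, beside 21.7% of all genes. AD/KO replicate 2 was the lowest library for 9 of the 10, beside 42.4% of all genes, and without it the median was −0.0071 with 5 of the 10 lower.

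**Figure D1:**
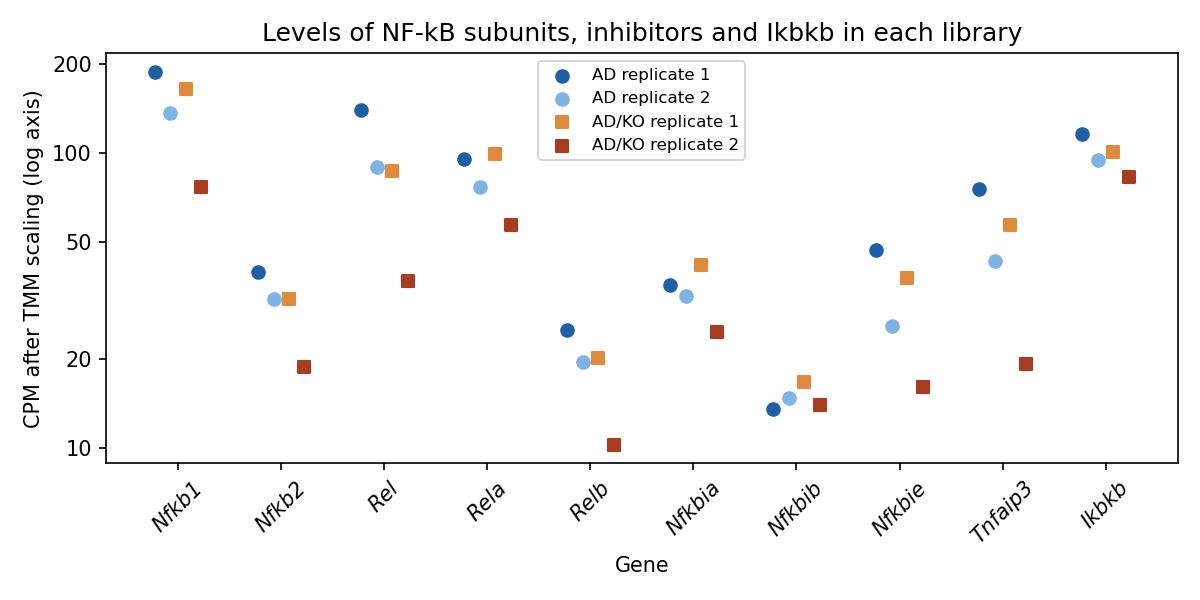
Level of each of the 10 genes in each library, in CPM after TMM scaling on a log axis; circles are AD libraries and squares AD/KO libraries. AD/KO replicate 2 is the lowest point for every gene but Nfkbib, and AD/KO replicate 1 lies near or among the AD libraries.

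Of the subunits that carry an activation domain, Rel (c-Rel; gene ID 19696, chromosome 11, 23736847 to 23770969) differed most. Its level was 139 and 89.9 CPM in the AD libraries and 86.7 and 36.9 CPM in the AD/KO libraries. The groups did not overlap, but AD replicate 2 and AD/KO replicate 1 were separated by only a few CPM. The log2 fold change of −0.89 (SE 0.52, 95% interval −2.22 to 0.44) did not pass the threshold (adjusted p = 0.680, edgeR quasi-likelihood with Benjamini-Hochberg). Its direction was the same in each of the alternative fits, but its size ran from −0.11 with the neuron and astrocyte level as a covariate to −1.58 without AD/KO replicate 1.

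Rela (p65; gene ID 19697, chromosome 19, 5637442 to 5648134) is the partner in the classical p50-p65 pair. It was measured at 95.4 and 76.3 CPM in AD and at 99.1 and 57.1 CPM in AD/KO. The highest and the lowest library both belonged to AD/KO, so that the groups overlapped fully. The log2 fold change was −0.14 (SE 0.38), and it was 0.22 without AD/KO replicate 2 and 0.61 with scaling to the microglia markers.

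Relb, the partner of p52 in the slower non-canonical pathway (gene ID 19698, chromosome 7, 19606217 to 19629438), was low, at 25.2 and 19.6 CPM in AD and 20.2 and 10.3 CPM in AD/KO. AD/KO replicate 1 lay between the AD libraries. Its log2 fold change was −0.55 (SE 0.44), against 0.14 with scaling to the microglia markers.

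The precursors behaved alike in pattern, though not in level. Nfkb1 (p105 and p50; gene ID 18033, chromosome 3, 135584655 to 135691969) had the highest mean CPM of the 10 genes, though not the highest level in AD/KO replicate 2, at 188 and 136 CPM in AD and 165 and 76.7 CPM in AD/KO. Again AD/KO replicate 1 lay between the AD libraries, and the log2 fold change of −0.43 (SE 0.48) became 0.030 without AD/KO replicate 2. Nfkb2 (p100 and p52; gene ID 18034, chromosome 19, 46300994 to 46312400) stood at 39.4 and 32.0 CPM in AD and at 31.9 and 18.8 CPM in AD/KO. Its groups did not overlap, by 31.96 against 31.91 CPM in the nearest libraries. The log2 fold change was −0.49 (SE 0.37), and 0.26 with scaling to the microglia markers. Genes on the other strand (Psd and AC114539.1) cover 18.1% of the exon bases of Nfkb2, and the use of strand in counting is not given in the sources used here.

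**Figure D2:**
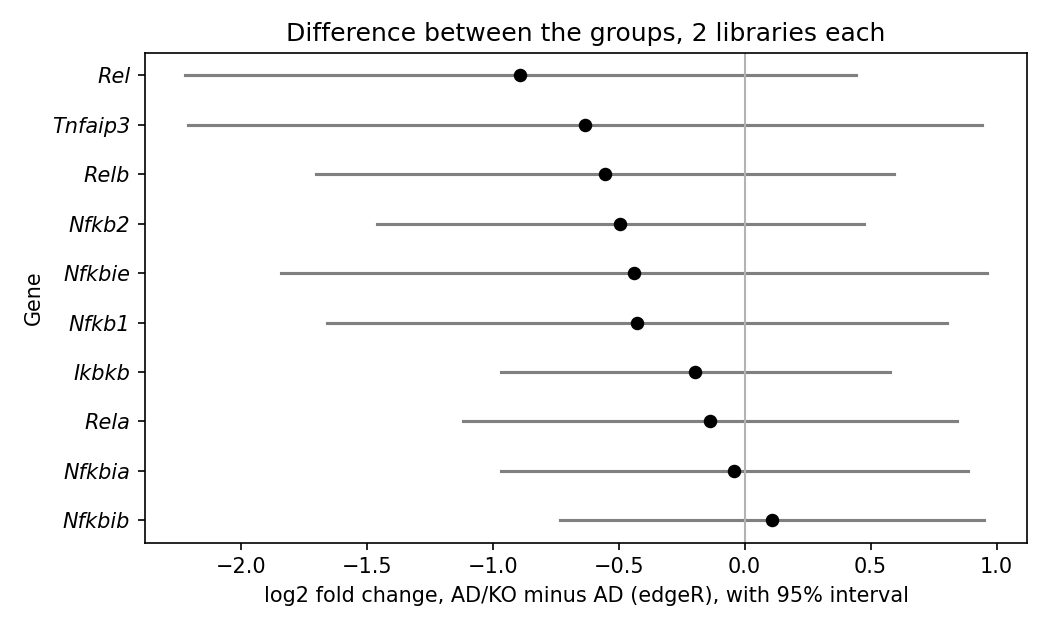
Log2 fold change of each gene (AD/KO minus AD) from edgeR, with its 95% interval, from 2 libraries per group. Every interval holds 0, and the estimates run from −0.89 for Rel to 0.11 for Nfkbib.

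Among the I-kappa-B proteins, Nfkbia (I-kappa-B-alpha; gene ID 18035, chromosome 12, 55489409 to 55492647) is the fast feedback inhibitor and a common readout of NF-kB activity. It was at 35.6 and 32.6 CPM in AD and at 41.7 and 24.6 CPM in AD/KO. Both extremes again lay in AD/KO, with a log2 fold change of −0.04 (SE 0.36, 95% interval −0.97 to 0.89). The direction turned with scaling to the microglia markers (0.70) and when AD/KO replicate 2 (0.30) or AD replicate 1 (0.016) was left out.

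Nfkbib (I-kappa-B-beta; gene ID 18036, chromosome 7, 28758251 to 28766644) was the steadiest gene, at 13.6 and 14.8 CPM in AD and 16.7 and 13.9 CPM in AD/KO. Its highest library was 1.23 times its lowest, the smallest ratio among the 10 genes. Its fitted log2 difference of 0.11 (SE 0.33) stayed above 0 in every fit, at up to 0.97 with scaling to the microglia markers. Ccer2 and Sirt2 on the other strand cover 16.4% of its exon bases.

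Nfkbie (I-kappa-B-epsilon; gene ID 18037, chromosome 17, 45555700 to 45563169) varied more within groups than between them. It stood at 46.9 and 25.8 CPM in AD and at 37.5 and 16.1 CPM in AD/KO, and the libraries of the groups alternated in order. Its fitted log2 difference was −0.44 (SE 0.54), against 0.057 without AD/KO replicate 2.

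Tnfaip3 (A20; gene ID 21929, chromosome 10, 19000910 to 19015410), which strips ubiquitin chains from the receptor complexes upstream of the kinase, spread most. Its level was 75.6 and 43.1 CPM in AD and 57.1 and 19.3 CPM in AD/KO, a ratio of 3.91 between the highest and the lowest library. AD/KO replicate 1 lay between the AD libraries. The log2 fold change of −0.63 (SE 0.61) did not pass the threshold (adjusted p = 0.719, edgeR quasi-likelihood with Benjamini-Hochberg), and it was −0.04 without AD/KO replicate 2 and −0.08 with scaling to the microglia markers.

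Ikbkb (gene ID 16150, chromosome 8, 22659205 to 22706589), the kinase subunit, stood at 116 and 94.5 CPM in AD and at 100.4 and 83.1 CPM in AD/KO. The highest library was 1.39 times the lowest, and AD/KO replicate 1 lay between the AD libraries. Its fitted log2 difference was −0.20 (SE 0.30), and 0.70 with scaling to the microglia markers.

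Between genes, levels can be compared only per transcript length. In reads per kilobase of annotated exon at the same library scaling (RPKM), Rela was the highest of the 10 genes in every library, at 31.1 and 24.9 in AD and 32.2 and 18.6 in AD/KO. Nfkbia came next in every library, with a mean of 20.9 RPKM. Rel (11.8), Nfkb1 (11.7) and Nfkbie (10.4) formed a middle group by mean RPKM. Nfkbib (6.80), Tnfaip3 (6.75), Nfkb2 (6.66), Ikbkb (5.16) and Relb (4.84) were lowest. Neighbours in this order overlapped in their ranges over the 4 libraries. The exon length pools all annotated transcripts, and for Ikbkb (19078 bases) and Nfkb1 (12061 bases) it may exceed the transcript made here, which would lower their RPKM.

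The mixture of Rel family transcripts can be read within each library, where scaling between libraries plays no part. Rel made up 28.6% and 25.4% of the reads of the 5 subunit genes in AD and 21.5% and 18.5% in AD/KO. Rela made up 19.6% and 21.6% in AD and 24.6% and 28.6% in AD/KO. Each AD/KO library thus had a smaller share of Rel and a larger share of Rela than each AD library, and the 95% Wilson intervals of the nearest libraries did not meet. For Rel these intervals were 24.3% to 26.5% in AD replicate 2 and 20.6% to 22.5% in AD/KO replicate 1. For Rela they were 20.5% to 22.6% and 23.7% to 25.6%. Intervals cover counting error only, not the difference between samples. With 2 libraries a group an exact two-sided permutation test cannot give a p below 0.333, and these shares were picked for description after their values were seen. Nfkb1 took from 38.4% to 40.9% and Nfkb2 from 7.93% to 9.40%, each with overlapping groups. Relb took 5.16% and 5.54% in AD and 5.02% and 5.13% in AD/KO, lower in AD/KO without overlap, but the Wilson intervals of all 4 libraries met.

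**Figure D3:**
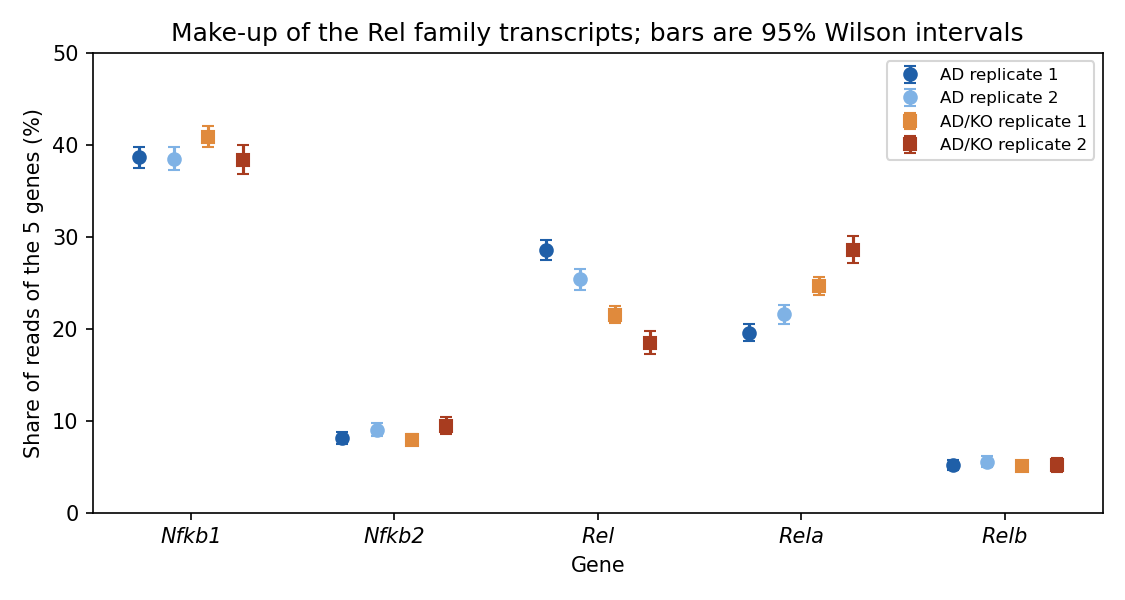
Share of each Rel family gene among the reads of the 5 genes, in percent, for each library; bars are 95% Wilson intervals for counting error. The Rel points run from 28.6% to 18.5% and the Rela points from 19.6% to 28.6%, without overlap of the groups or of the intervals between them, while the intervals of the groups meet for Nfkb2 and Relb.

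The shares of Rel and Rela also followed the neuron and astrocyte level where that differed most, since AD replicate 1 had the lowest level (5.41) and AD/KO replicate 2 the highest (8.25). The libraries nearest in that level, AD replicate 2 (6.87) and AD/KO replicate 1 (6.78), still differed in both shares. However, AD replicate 2 also held the most neutrophil RNA and the most Xist reads. The part of any of these in the shares was not tested.

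The inhibitors were compared with the subunits in the same way, as the mean log2 CPM of Nfkbia, Nfkbib, Nfkbie and Tnfaip3 minus that of the 5 subunits. This difference was −1.054 and −1.054 in the AD libraries and −0.82 and −0.79 in the AD/KO libraries. On average the inhibitors thus stood higher against the subunits in AD/KO by 0.25 on the log2 scale. The pooled SD between libraries of a group was 0.014, but with 2 libraries a group it is too uncertain to serve as a yardstick. An exact two-sided permutation test cannot give a p below 0.333 here. Leaving out any single library kept the difference between 0.23 and 0.26. Without Tnfaip3 it was 0.40, with values of −1.40 and −1.27 in AD and −1.05 and −0.82 in AD/KO. These no longer sat as close within the groups. Leaving out other genes was not tried. The inhibitors did not move alike, with log2 fold changes of −0.04 (Nfkbia), 0.11 (Nfkbib), −0.44 (Nfkbie) and −0.63 (Tnfaip3). Those of the subunits ran from −0.89 (Rel) to −0.14 (Rela). The ratio shows unequal levels, not which side differed: the mean of the subunits was 6.25 and 5.84 in AD and 5.97 and 5.01 in AD/KO, and that of the inhibitors 5.20 and 4.79 in AD and 5.15 and 4.22 in AD/KO. AD replicate 2 and AD/KO replicate 1, alike in neuron and astrocyte level, differed in this ratio by about as much as the groups did, and the part of the other differences between these libraries was not tested.

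Set against the microglia markers of the same library, the order of the groups changed. The mean log2 CPM of the 10 genes minus that of the markers was −4.38 and −4.29 in AD and −4.50 and −3.60 in AD/KO. AD/KO replicate 2, the lowest library in CPM, was the highest on this scale. Of the 10 genes, 8 had a higher mean in AD/KO on this scale and 2 (Rel and Tnfaip3) a lower one. The groups overlapped for all 10. In the edgeR fit with libraries scaled to these markers, 17.1% of all genes were lower, so most genes moved this way. For Rel the values were −3.15 and −3.28 in AD and −3.76 and −3.20 in AD/KO.

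AD replicate 2 and AD/KO replicate 1 were also compared directly, as a description without replicates. In AD/KO replicate 1, 8 of the 10 genes were higher and 2 (Rel and Nfkb2) lower, with a median difference of 0.22 on the log2 scale beside 0.0021 for all genes. Nfkbie showed the widest gap, at 0.53. With this pair the direction of the median was opposite to that of the full comparison. The 2 libraries also differed in neutrophil RNA, in Xist reads and in the mean of the microglia markers (9.78 in AD replicate 2, 10.2 in AD/KO replicate 1). Set against these markers, the mean of the 10 genes was lower in AD/KO replicate 1 (−4.50) than in AD replicate 2 (−4.29). The part of these differences was not tested.

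**Figure D4:**
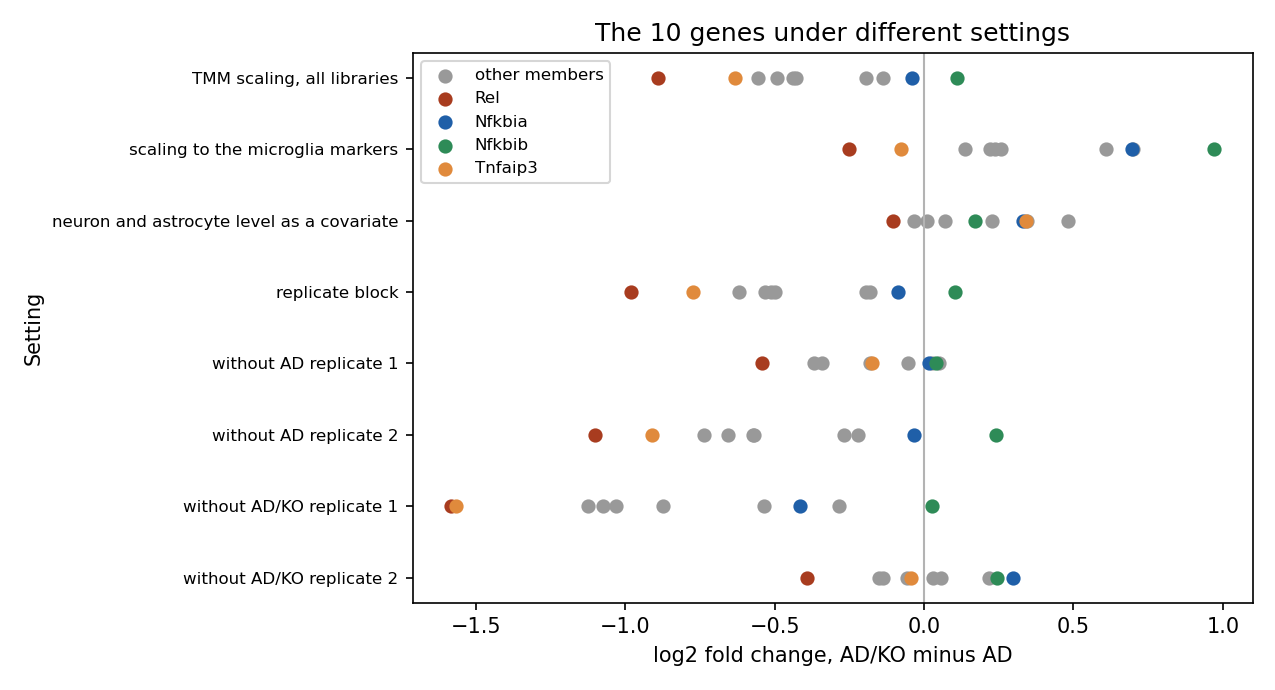
Log2 fold change (AD/KO minus AD) of the 10 genes under 8 settings, with Rel, Tnfaip3, Nfkbia and Nfkbib in colour. The points move to the left without AD/KO replicate 1 (Rel at −1.58) and to both sides of 0 without AD/KO replicate 2, and only Rel and Tnfaip3 stay below 0 with scaling to the microglia markers.

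The median profile of the 10 genes over the 4 libraries, as log2 CPM centred on each gene's mean, was 0.45 and −0.0035 in AD and 0.23 and −0.71 in AD/KO. Nfkb1 lay nearest to it (Euclidean distance 0.12), followed by Relb (0.16) and Nfkb2 (0.19), and Nfkbib farthest (0.85). Outside the pathway and marker lists, the 5 genes nearest to the profile were Snrnp35 (0.019), Erp29 (0.022), Prrc1 (0.027), Rest (0.038) and Oxsm (0.041). With 4 libraries such likeness is common: 653 of 13623 genes with a mean of at least 5 CPM lay within 0.25.

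The other genes of the pathway were taken from 3 lists. These were chosen with earlier results of these data known, so that their counts are description only. The first held 26 kinases, adaptors and ubiquitin ligases of the signalling steps upstream of NF-kB. All 26 were tested and 0 passed the threshold in either direction, with 0 at an unadjusted p under 0.05 and 0 by DESeq2. With the replicate block 4 passed, all lower (Irak4, Malt1, Map3k8 and Ripk1), beside 20.2% of all genes, with 6.79% of all genes lower. Under TMM scaling 20 were lower and 6 higher in AD/KO, with a median of −0.35. With scaling to the microglia markers 24 of the 26 were higher and 2 lower, beside 17.1% of all genes lower. Of the most abundant, Tab2, an adaptor of the kinase Map3k7, stood at 268 and 186 CPM in AD and 222 and 122 CPM in AD/KO. Irak2, a kinase of the interleukin-1 receptor complex, stood at 189 and 111 CPM in AD and 135 and 75.7 CPM in AD/KO. Traf3, a brake on the non-canonical pathway, was at 145 and 118 CPM and at 120.5 and 113 CPM, and Irak1 at 118 and 114 CPM and at 116 and 120.1 CPM. Irak1 was flat, with a highest library 1.05 times the lowest. The groups did not overlap, with AD/KO lower, for 6 of the 26 and, with AD/KO higher, for 3, beside 21.7% and 20.3% of all genes. The 3 that were above were Tab1, Rnf31 and Rbck1 (named after seeing their values), of which Rnf31 and Rbck1 encode parts of the linear ubiquitin ligase. Its other subunit, Sharpin, overlapped between the groups, at 35.9 and 34.2 CPM in AD and 41.5 and 31.6 CPM in AD/KO.

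The second list held 20 other I-kappa-B proteins and brakes, among them the nuclear I-kappa-B proteins Bcl3, Nfkbid and Nfkbiz. It is called other brakes for short, although not every gene in it, such as Nfkbiz, acts only as a brake. None of the 20 passed the threshold in edgeR without a block or in DESeq2. With the replicate block 2 passed (Nfkbiz and Tnip3, both lower), beside 20.2% of all genes, with 6.79% of all genes lower. Of the 20, 17 were lower under TMM scaling, with a median of −0.25. With scaling to the microglia markers 4 were lower, beside 17.1% of all genes. In 11 of the 20 each AD/KO library was lower than each AD library, beside 21.7% of all genes. Nfkbiz, an atypical I-kappa-B protein that helps switch on a secondary set of target genes, was at 78.4 and 66.5 CPM in AD and at 40.6 and 24.0 CPM in AD/KO. The groups were well apart, with a log2 fold change of −1.16 (SE 0.36, unadjusted p = 0.0247, adjusted p = 0.680, edgeR quasi-likelihood with Benjamini-Hochberg). Tnip3, a partner of A20, had 11 and 19 reads in AD and 1 and 0 reads in AD/KO (unadjusted p = 0.00794, adjusted p = 0.680 by the same edgeR test). It was the only other gene of this list with an unadjusted p under 0.05. The abundant members differed less: N4bp1 was at 119 and 109 CPM in AD and 114 and 88.7 CPM in AD/KO, Cyld at 99.9 and 93.7 CPM and at 81.8 and 93.6 CPM, Itch at 120.5 and 101 CPM and at 88.8 and 65.2 CPM, and Tax1bp1 at 83.2 and 92.1 CPM and at 76.1 and 76.4 CPM.

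The third list held 34 textbook target genes of NF-kB, of which 30 passed the filter (Il12b, Ccl2, Cxcl1 and Cxcl2 did not, with at most 9 reads in a library). It stood lowest of the lists, with a median of −1.04 and 26 of 30 genes lower under TMM scaling, and with scaling to the microglia markers it was still below 0 (−0.35, 20 of 30 lower), where the median of all genes was 0.86. None passed the threshold in edgeR without a block. DESeq2's own test called 2 of the 30 (Ccl3 and Ccl4, both lower), beside 0.420% of all genes. With the replicate block edgeR called 13 of the 30 (12 lower, and Sod2 higher), beside 20.2% of all genes, with 6.79% of all genes lower. In edgeR without a block 6 of the 30 had an unadjusted p under 0.05, all lower, beside 2.30% of all genes. Since the list was chosen with earlier results of these data known, its shares are description and not a test. In 14 of the 30 each AD/KO library was lower than each AD library, beside 21.7% of all genes. The cytokine Tnf was at 7.98 and 9.90 CPM in AD and at 2.29 and 0.98 CPM in AD/KO (log2 fold change −2.44, SE 0.61). Il1b, another inflammatory cytokine, was at 17.9 and 22.4 CPM and at 6.78 and 8.30 CPM. The growth factor Csf1 was at 87.5 and 106 CPM and at 39.7 and 35.1 CPM, a log2 fold change of −1.37 (SE 0.28). The groups stood clear of each other for Tnf, Il1b and Csf1. In the opposite direction, AD/KO was above AD without overlap for 2 of the 30, beside 20.3% of all genes: Ptgs2, and the mitochondrial superoxide dismutase Sod2 at 30.8 and 39.4 CPM in AD and 42.9 and 81.1 CPM in AD/KO, both named after seeing their values.

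The chemokine Ccl3 was at 18.1 and 22.1 CPM in AD and at 5.11 and 1.36 CPM in AD/KO, and Ccl4 at 13.9 and 13.8 CPM and at 3.49 and 1.19 CPM. The unadjusted p of these 5 ran from 0.00501 for Csf1 to 0.0143 for Ccl3, with an adjusted p of 0.680 for each in the edgeR quasi-likelihood F-test (Benjamini-Hochberg). Cxcl10 was the sixth gene (21 and 37 reads in AD, 5 and 7 in AD/KO), named after its values were seen. Among the most abundant targets, the anti-apoptotic Cflar (278 and 171 CPM against 203 and 99.0 CPM) and the inflammasome sensor Nlrp3 (162 and 97.7 CPM against 110.2 and 29.7 CPM) overlapped between groups. Lcn2 (27.1 and 386 CPM against 42.2 and 41.8 CPM) and Mmp9 (44.9 and 217 CPM against 38.2 and 47.2 CPM) were high in AD replicate 2 alone, the library with the most neutrophil RNA, whose part was not tested. Monocyte markers summed to 85.1 and 414 CPM in AD and 48.8 and 72.4 CPM in AD/KO, and border macrophage markers to 133 and 100.2 CPM and to 69.1 and 59.5 CPM. Both sums were lower in each AD/KO library than in each AD library. Singly, this held for 3 of the 5 monocyte markers and 5 of the 7 border macrophage markers, beside 21.7% of all genes. Ccr2, the defining monocyte receptor, was among the 3 (39.8 and 39.95 CPM in AD, 10.3 and 6.13 CPM in AD/KO). The monocyte markers Chil3 and Vcan and the border macrophage markers Pf4 and Cbr2 overlapped between the groups. Chil3 stood at 10.6 and 294 CPM in AD and at 15.1 and 25.7 CPM in AD/KO, high in AD replicate 2 alone. The part of monocytes and border macrophages in the level of the targets was not tested.

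**Figure D5:**
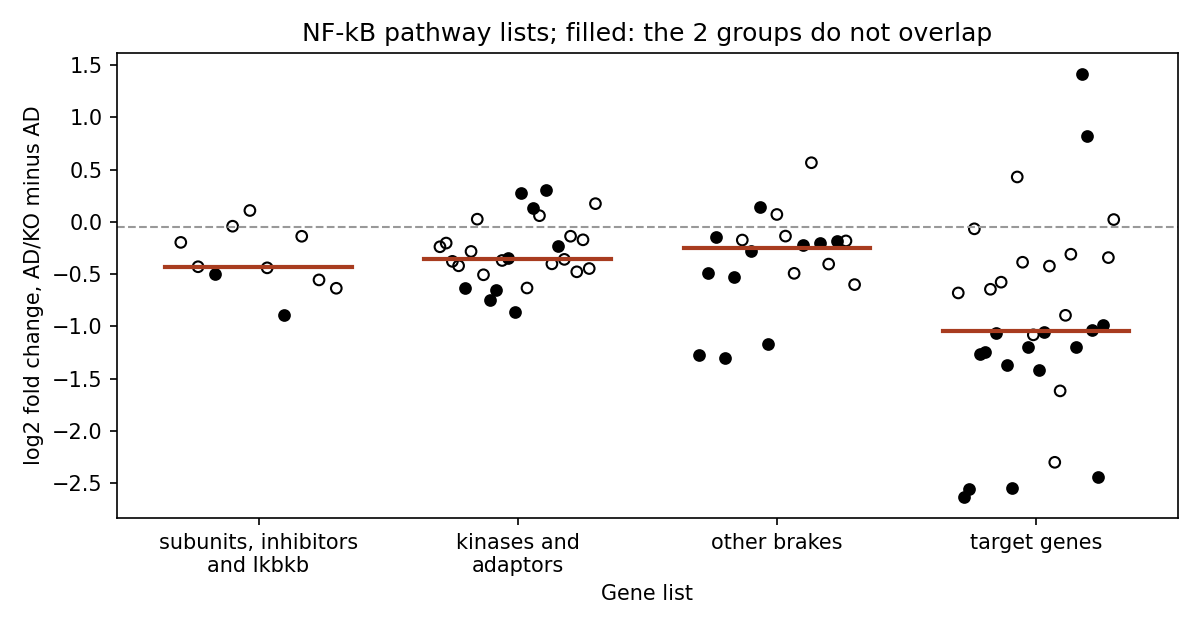
Log2 fold change (AD/KO minus AD, TMM scaling) of each gene in the 4 lists; red lines are list medians, the dashed line is the median of all genes tested, and filled points are genes whose groups do not overlap. The target genes have the lowest median (−1.04) beside −0.43 for the subunits and inhibitors; Tnip3, with 1 and 0 reads in AD/KO, is not drawn.

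Immediate early genes are, like Nfkbia and Nfkbiz, known to respond to the isolation of microglia, and 9 of them were set beside these values. Their mean log2 CPM was 4.003 and 4.06 in AD and 4.17 and 4.10 in AD/KO. Each AD/KO library was lower than each AD library for 2 of the 9 and higher for 4, beside 21.7% and 20.3% of all genes. Egr1 was at 18.1 and 17.6 CPM in AD and 20.4 and 32.8 CPM in AD/KO, and Atf3 at 16.8 and 11.99 CPM and at 8.18 and 1.95 CPM, both named after seeing their values.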

How the data were processed

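RNA from magnetically sorted CD11b+ cells was depleted of ribosomal RNA and made into stranded libraries, per the labels' protocols. The authors deposited whole-number read counts per gene, not normalized, in 1 table per library. The submitters' processing notes name mm10, HISAT2, SAMtools, featureCounts (Subread) and DESeq2 1.30.0, and the strand setting and the annotation are not given in the sources used here. Broken lines (11 per library) held no count.

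Counts were tested with edgeR 4.0.16 in R 4.3.3 (filterByExpr at its count limits of 10 per library and 15 in total, TMM scaling, quasi-likelihood F-test on all 4 libraries, no covariates), with Benjamini-Hochberg adjustment over all 21439 genes tested, after a test on simulated data. SE is the log2 fold change divided by the square root of F. Alternatives were DESeq2 1.42.0, its size factors, scaling to 13 microglia markers, no filter or a mean of 1 CPM, a replicate block, a composition covariate and leaving out each library. Positions and promoters are from RefSeq (GRCm38.p6), exon lengths from GENCODE M21. The members and lists were chosen with earlier results of these data known. Named beside the 10 members were the 4 most abundant genes of each list, up to 5 with the smallest unadjusted p under 0.05, and the 5 genes nearest in pattern.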

Additional observations from a re-analysis of the deposited data

How the results depend on the processing

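With 2 libraries a group and a biological coefficient of variation of 44.5%, precision was low: the 95% interval of Rel ran from −2.22 to 0.44. Genes past the adjusted threshold numbered 0 in edgeR (1072 at an unadjusted p under 0.05), 90 with DESeq2's own test (0.420% of genes, 0 of the 10), 6 with the neuron and astrocyte covariate, and from 0 to 524 with a library left out (48 without AD replicate 1, 524 without AD replicate 2). The libraries share replicate numbers, but no label says that these pair them. With the replicate block 4333 genes were called (20.2%, with 6.79% of all genes lower). Among them were Rel (−0.98, adjusted p = 0.0159) and Tnfaip3 (−0.77, adjusted p = 0.046) by edgeR with Benjamini-Hochberg. The block left 1 residual degree of freedom. Within-group departures of libraries sharing a number correlated at 0.72 across genes, which cannot show a pairing. With 2 libraries a group, exchanging the numbers in 1 group would only turn the sign of this correlation. Replicate 2 also had the higher neuron and astrocyte level in each group (6.87 against 5.41 in AD, 8.25 against 6.78 in AD/KO). The part of that difference in these calls was not tested.

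Scaling to the microglia markers raised the median of all genes from −0.05 to 0.86. The list medians were then 0.25 (the 10 genes), 0.49 (kinases and adaptors), 0.60 (other brakes) and −0.35 (targets), with Nfkb1 at 0.24, Nfkb2 0.26, Rela 0.61, Relb 0.14, Nfkbia 0.70, Nfkbie 0.22 and Ikbkb 0.70. With the covariate, which leaves 1 residual degree of freedom, the medians were 0.20 (the 10 genes), 0.059 (kinases and adaptors) and −0.59 (targets), with Nfkb1 at 0.23, Rela 0.34, Relb 0.0087, Nfkbia 0.33, Nfkbie 0.48, Tnfaip3 0.34 and Ikbkb 0.070. In AD replicate 2 against AD/KO replicate 1, chosen after the data were seen, the medians were 0.22, 0.081 and −0.52 for the same 3 lists. The other brakes kept their direction in both. With a library left out they ran from −0.95 to −0.0071 for the 10 genes, from −0.46 to −0.067 for kinases and adaptors, from −0.45 to −0.16 for other brakes and from −1.41 to −0.59 for targets. The lower end of each came without AD/KO replicate 1 and the upper end without AD/KO replicate 2. The members that turned in direction ran from −1.03 to 0.030 (Nfkb1), −0.54 to 0.22 (Rela), −0.42 to 0.30 (Nfkbia) and −1.13 to 0.057 (Nfkbie), all 4 of them above 0 without AD/KO replicate 2 and all but Nfkb1 also without AD replicate 1 (0.027, 0.016 and 0.051). The inhibitors against the subunits stood at 0.25, from 0.23 to 0.26 with a library left out and at 0.40 without Tnfaip3. The causes were not tested. The other 87 values of single members kept their direction and stayed short of the threshold.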
